A study of Homo sapiens with 4 samples.

Results

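ZFAS1, DANCR, EPB41L4A-AS1 and LRRC75A-AS1 are long noncoding RNA (lncRNA) genes that carry small nucleolar RNAs (snoRNAs) in their introns but do not have the SNHG names given to most such hosts. LRRC75A-AS1 is also called SNHG29. They were taken by name from the table of lncRNA isoforms, where 57 of the 104786 listed isoforms belonged to these 4 of 46902 genes. ZFAS1 had 18 isoforms, DANCR 7, EPB41L4A-AS1 8 and LRRC75A-AS1 24.

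The libraries came from MDA-MB-231-P3, a highly metastatic subline, and from MDA-MB-231, the human triple-negative breast cancer cell line it was derived from, with 2 libraries per line and 4 in all. Per the labels' protocols, MDA-MB-231 cells were injected into the tail veins of mice, the cells that had grown as lung tumours were expanded in culture, and repeated rounds of this selection gave the subline. Both lines were grown in culture before RNA was taken, and no other treatment, age or genotype was given. Each line is a single origin, and the labels did not say whether its libraries came from separate cultures, so each p-value measured the spread among these 4 libraries alone, and that spread may be technical. The selection in mice and the additional passages in culture cannot be told apart by this design.

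A snoRNA host gene is transcribed and spliced, and the snoRNA is trimmed out of the excised intron while the joined exons remain as the host RNA. C/D snoRNAs guide the methylation of riboses in ribosomal and other RNAs, and H/ACA snoRNAs guide the conversion of uridine to pseudouridine. Many host RNAs begin with the terminal pyrimidine tract typical of ribosomal protein mRNAs, and many are degraded in the cytoplasm by nonsense-mediated decay, so that their level reflects turnover as well as transcription. ZFAS1 is known for its part in mammary gland development, DANCR for restraining the differentiation of progenitor cells, and both have been studied widely in tumours.

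In the genome of the files (hg19, GRCh37), all 4 genes lie on the plus strand and are annotated as lncRNA in GENCODE release 44 lifted to that build. ZFAS1 lies at chr20:47894715-47916137 and overlaps the start of ZNFX1 on the opposite strand by 249 bases. DANCR lies at chr4:53578492-53589790. EPB41L4A-AS1 lies at chr5:111496223-111500515, wholly inside EPB41L4A and antisense to it. LRRC75A-AS1, listed there as SNHG29, lies at chr17:16342081-16383563 and is antisense to LRRC75A over 38673 bases. The libraries were strand-specific, but whether the counting used the strand is not given in the sources used here, so reads of these overlapping antisense partners may not have been kept apart.

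The annotation places 5 snoRNAs within ZFAS1, DANCR and EPB41L4A-AS1. Their sequences are shown because the snoRNA is what these hosts share beyond their names, and because the listed values are those of host isoforms. In the C/D snoRNAs of ZFAS1 the capitals mark the C box near the 5′ end and the D box near the 3′ end, and in the H/ACA snoRNAs of DANCR and EPB41L4A-AS1 they mark the ACA that lies 3 bases before the 3′ end.
SNORD12C (ZFAS1, chr20:47895477-47895565, plus strand, hg19): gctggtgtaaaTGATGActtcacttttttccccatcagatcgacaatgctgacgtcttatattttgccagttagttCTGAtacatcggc
SNORD12B (ZFAS1, chr20:47896856-47896946, plus strand, hg19): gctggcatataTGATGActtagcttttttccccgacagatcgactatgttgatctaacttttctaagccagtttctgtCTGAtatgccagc
SNORD12 (ZFAS1, chr20:47897220-47897309, plus strand, hg19): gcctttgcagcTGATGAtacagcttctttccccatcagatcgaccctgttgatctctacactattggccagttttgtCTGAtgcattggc
SNORA26 (DANCR, chr4:53579416-53579537, plus strand, hg19): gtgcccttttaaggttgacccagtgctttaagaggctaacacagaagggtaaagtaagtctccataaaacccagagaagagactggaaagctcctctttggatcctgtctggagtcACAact
SNORA13 (EPB41L4A-AS1, chr5:111497182-111497314, plus strand, hg19): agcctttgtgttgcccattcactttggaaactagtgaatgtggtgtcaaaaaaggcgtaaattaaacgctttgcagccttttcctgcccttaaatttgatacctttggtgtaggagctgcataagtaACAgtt

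The 3 snoRNAs of ZFAS1 form a family, and the longest run of letters found in all of them was cagatcgac, of 9 bases. SNORD12C lay in an intron of 11 of the 14 annotated ZFAS1 transcripts, and SNORD12B and SNORD12 in an intron of 10 each. SNORA26 lay in an intron of 12 of 14 DANCR transcripts, and SNORA13 in an intron of 8 of 9 EPB41L4A-AS1 transcripts. SNORD12B, SNORD12, SNORA26 and SNORA13 each overlapped an exon of 1 annotated transcript of their host, so a host isoform may also hold snoRNA sequence. LRRC75A-AS1 is known to host SNORD49A, SNORD49B and SNORD65. The isoform numbers of the table (ZFAS1:22 and so on) are not paired with these annotated transcripts in the sources used here, so no isoform could be assigned exons or an intron.

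The values are FPKM, a count of sequenced fragments scaled by transcript length and by the size of the library, and without the counts themselves the read depth was unknown. Added over every listed isoform, FPKM came to 351135 and 372689 for MDA-MB-231-P3, against 460282 and 500086 for MDA-MB-231. The 10 most abundant isoforms held 67.7% to 72.7% of that sum in every library. None of the 13 protein-coding marker genes looked up for breast, stromal, blood and endothelial cells was a row of this lncRNA table, so the labelled cell type could not be checked against its markers here.

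Setting the subline against its parent asks whether the host RNAs changed in level with selection for growth in the lung. Each of the 4 genes was listed lower in both MDA-MB-231-P3 libraries than in both MDA-MB-231 libraries, and none passed the test over all genes. Of all 6444 genes tested, 21.4% lay lower in the subline in this way and 28.9% higher, and 45.3% had a negative difference. Of the 171 genes with a mean summed level of at least 50 FPKM, where all 4 genes belong, 35.1% lay lower, 17.5% higher and 67.8% had a negative difference. Calls at a limma adjusted p under 0.05 made up 0.0621% of the genes tested. In bulk RNA, fewer cells that carry a transcript and less of it per cell cannot be told apart.

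LRRC75A-AS1 was the most abundant of the 4 in every library. Its isoforms summed to 990 and 1206 FPKM in MDA-MB-231-P3, against 1746 and 1568 FPKM in MDA-MB-231. The groups did not overlap, and the spread within the subline was larger than that within the parent. The means were 1098 ± 153 FPKM in MDA-MB-231-P3 and 1657 ± 126 FPKM in MDA-MB-231 (SD, n = 2 each), 33.7% lower in the subline. The log2(FPKM + 0.5) difference, subline minus parent, was -0.60 (SE 0.29, limma adjusted p = 0.408).

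ZFAS1, named for its place antisense to the start of ZNFX1, came second in every library. It was listed at 608 and 554 FPKM in MDA-MB-231-P3 and at 1102 and 1084 FPKM in MDA-MB-231. Libraries of the same line lay close together here, within a ratio of 1.10 in the subline and 1.02 in the parent, while the lower parental library was 1.78 times the higher subline library. The level was 46.9% lower in MDA-MB-231-P3, with a log2 difference of -0.91 (SE 0.27), the most negative of the 4. The unadjusted limma p was 0.0229 and the adjusted p 0.284, while 5.68% of all genes tested were lower and 9.5% higher at an unadjusted p under 0.05.

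EPB41L4A-AS1 was listed at 224 and 167 FPKM in MDA-MB-231-P3, against 438 and 266 FPKM in MDA-MB-231. The parental libraries differed from each other by a ratio of 1.65, more than the gap between the groups, where the lower parental library was 1.19 times the higher subline library. The means were 196 ± 40.0 FPKM in MDA-MB-231-P3 and 352 ± 121 FPKM in MDA-MB-231 (SD, n = 2 each), and the log2 difference was -0.82 (SE 0.38, limma adjusted p = 0.393). Without MDA-MB-231 replicate 1 the difference was -0.46, so this library set much of its size.

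DANCR was the least abundant of the 4, and its libraries lay close together within each line. It was listed at 59.4 and 58.7 FPKM in MDA-MB-231-P3 and at 80.7 and 78.4 FPKM in MDA-MB-231. The subline mean was 25.8% below the parental mean. Its log2 difference of -0.43, with SE 0.24 and a limma adjusted p of 0.469, was the smallest of the 4. Of all genes tested, 24.0% had a more negative difference than DANCR, against 9.05% for ZFAS1.

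**Figure D1:**
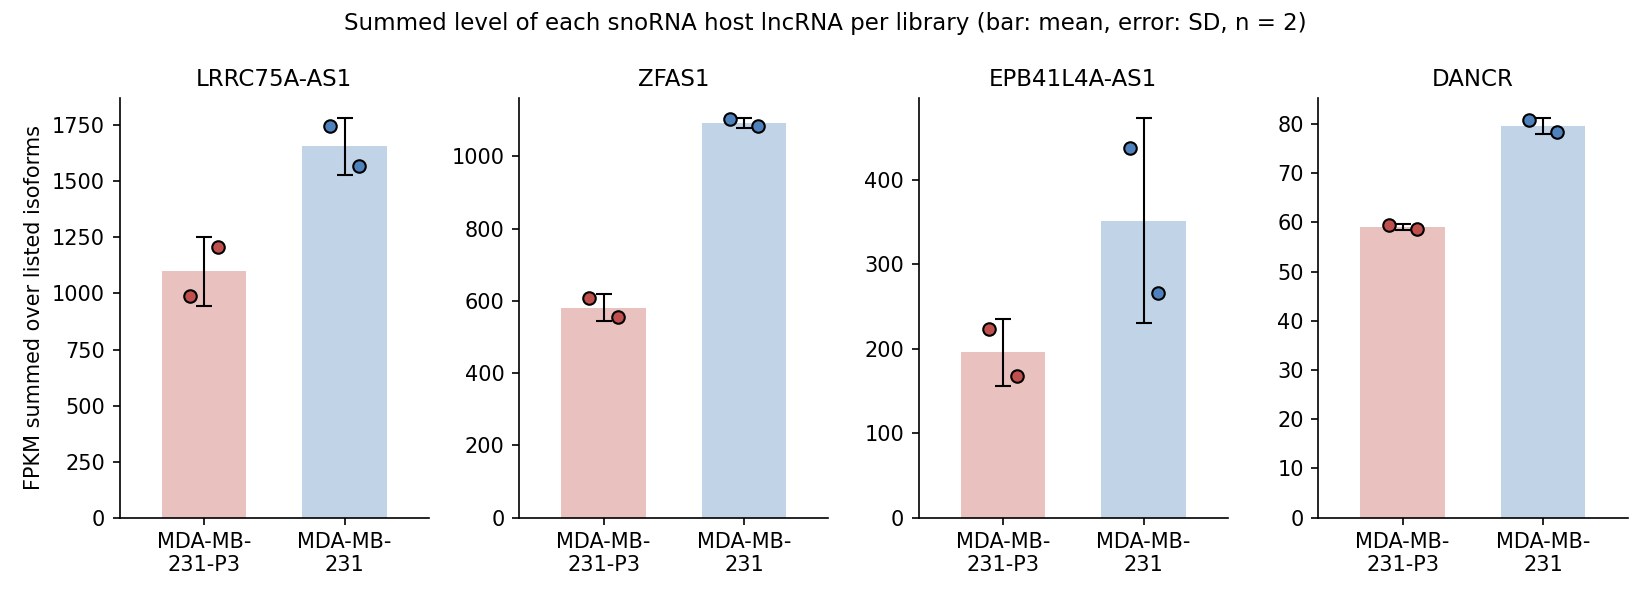
Level of each gene per library, as FPKM summed over its listed isoforms (y axis from 0, with a separate scale for each gene). Points are libraries, bars are means and error bars are SD (n = 2); both MDA-MB-231-P3 points lie below both MDA-MB-231 points in each panel, and the parental points of EPB41L4A-AS1, at 438 and 266 FPKM, lie farthest apart for their size.

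FPKM is a level per transcript length, so the genes can be ranked. The order LRRC75A-AS1, ZFAS1, EPB41L4A-AS1, DANCR was the same in all 4 libraries, and within a line no library of a gene reached the level of its neighbour in the order. Among all 46902 listed genes, LRRC75A-AS1 ranked 33 and 33 in MDA-MB-231-P3 and 27 and 32 in MDA-MB-231. ZFAS1 ranked 38 and 42 in the subline and 34 and 37 in the parent. EPB41L4A-AS1 ranked 61 and 78 in the subline and 49 and 67 in the parent. DANCR ranked 141 and 143 in the subline and 128 and 133 in the parent. Ranks of LRRC75A-AS1, ZFAS1 and DANCR were thus lower in the list in both subline libraries than in both parental ones, and those of EPB41L4A-AS1 overlapped. How many of all genes lay apart in rank was not computed, so the ranks are a description. By FPKM, 35.1% of genes of at least 50 FPKM lay lower without overlap.

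A ratio of 2 genes within a library does not depend on how the library was scaled. Of the 6 ratios between these genes, 2 did not overlap between the lines. ZFAS1 over DANCR was 10.2 and 9.44 in MDA-MB-231-P3 and 13.7 and 13.8 in MDA-MB-231, so ZFAS1 was lower in the subline relative to DANCR. LRRC75A-AS1 over ZFAS1 was 1.63 and 2.18 in MDA-MB-231-P3 and 1.58 and 1.45 in MDA-MB-231. The other 4 ratios overlapped. With 2 libraries against 2, an exact two-sided permutation test allows no p below 0.333, so the ratios are a description. How many ratios between other genes lay apart in this way was not computed.

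The size of every difference depended on the scaling of the libraries. The median log2 difference of all genes tested was 0.09 as deposited. Rescaling each library to an equal total of listed FPKM moved that median to 0.41, and leaving out the 14 isoforms that were among the 10 most abundant of any library before rescaling moved it to 0.32. The difference of DANCR was then -0.02 (SE 0.26) and -0.13 (SE 0.32), and that of ZFAS1 -0.51 (SE 0.27) and -0.62 (SE 0.32). Taken relative to the median of all genes, DANCR stood at -0.52 as deposited and at -0.43 and -0.45 after these rescalings, and ZFAS1 at -1.0, -0.91 and -0.94. Quantile normalization, which also changes the shape of the distributions, gave -0.19 for DANCR and -0.52 for ZFAS1 relative to its median of -0.03.

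Expressed as a share of all listed FPKM, ZFAS1 held 0.173% and 0.149% in MDA-MB-231-P3, against 0.240% and 0.217% in MDA-MB-231, without overlap. DANCR held 0.0169% and 0.0157% in MDA-MB-231-P3 and 0.0175% and 0.0157% in MDA-MB-231, which overlapped. The shares of EPB41L4A-AS1 and LRRC75A-AS1 overlapped as well. On this scale the lines stayed apart for ZFAS1 alone among these genes. With the 14 most abundant isoforms left out of the total, LRRC75A-AS1 stayed apart as well. How many of all genes stayed apart on these scales was not computed, so this is a description.

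**Figure D2:**
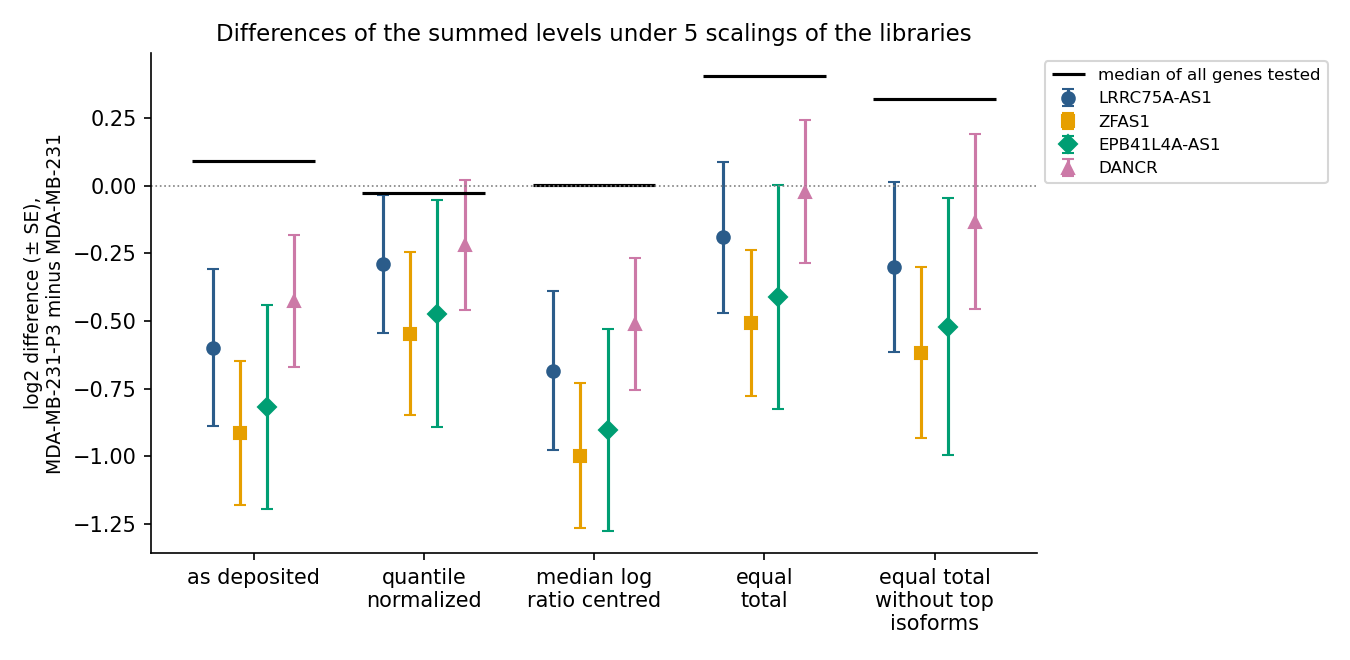
Log2 difference of each summed gene, MDA-MB-231-P3 minus MDA-MB-231 (y axis, points with SE from limma), under 5 scalings of the libraries (x axis), with the median of all genes tested as a black line. The 4 genes lie below the black line in each scaling, while the line itself lies between -0.03 and 0.41 and DANCR comes to -0.02 with an equal total. The line covers genes of every level, and the median of genes of at least 50 FPKM, -0.28 as deposited, is not drawn.

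Below the level of the gene, 43 of the 57 isoforms had a mean of at least 0.5 FPKM and were tested: 11 of ZFAS1, 5 of DANCR, all 8 of EPB41L4A-AS1 and 19 of LRRC75A-AS1. The other 14 reached 1 FPKM in no library and held at most 1.42% of their gene. None of the 43 was called, and 0.0% of all 8432 isoforms tested were called (limma, smallest adjusted p of 0.0905 overall and 0.321 among the 43). Without adjustment, 6 of the 43 had p under 0.05 with a lower level in the subline and 1 with a higher level, against 5.46% and 7.87% of all isoforms tested. The difference was negative for 31 of the 43, against 46.0% of all isoforms tested. Both subline libraries lay below both parental ones for 25 of the 43 and above them for 5, against 20.7% and 27.3% of all isoforms tested. Of the 25, 12 were isoforms of LRRC75A-AS1 and 8 of ZFAS1. Isoforms of a gene share reads, so these counts over the 43, here and below, do not come from independent members. No share was computed for isoforms of like abundance. A single isoform led its gene in every library: ZFAS1:22, DANCR:13, EPB41L4A-AS1:7 and LRRC75A-AS1:91.

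The leading isoform of ZFAS1, ZFAS1:22, was listed at 384 and 327 FPKM in MDA-MB-231-P3 and at 478 and 659 FPKM in MDA-MB-231. The second, ZFAS1:25, was listed at 117 and 103 FPKM in MDA-MB-231-P3 and at 361 and 242 FPKM in MDA-MB-231. The log2 difference was -1.42 (SE 0.36, limma adjusted p = 0.321) for ZFAS1:25 and -0.66 (SE 0.34, limma adjusted p = 0.484) for ZFAS1:22, and neither passed. Without MDA-MB-231 replicate 2, ZFAS1:22 was at -0.43. Together they made up 41.6% (ZFAS1:22) and 37.4% (ZFAS1:25) of the difference of the summed gene. As a share of ZFAS1, ZFAS1:25 held 19.3% and 18.6% in the subline and 32.8% and 22.4% in the parent. The share of ZFAS1:22 overlapped between the lines, at 63.2% and 58.9% in MDA-MB-231-P3 and 43.3% and 60.8% in MDA-MB-231.

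Among the lesser isoforms of ZFAS1, ZFAS1:26 was listed at 32.6 and 24.4 FPKM in MDA-MB-231-P3 and at 89.5 and 63.8 FPKM in MDA-MB-231, and ZFAS1:27 at 14.5 and 24.4 FPKM in MDA-MB-231-P3 and at 57.1 and 36.4 FPKM in MDA-MB-231. ZFAS1:21, ZFAS1:17, ZFAS1:24 and ZFAS1:10 were also lower without overlap, with log2 differences of -0.91, -0.72, -0.35 and -1.95, and adjusted p of 0.488, 0.423, 0.634 and 0.393 (limma). Single libraries set much of 3 of these: ZFAS1:21 was at -0.36 without MDA-MB-231 replicate 1, and without MDA-MB-231-P3 replicate 1 ZFAS1:24 was at -0.12 and ZFAS1:10 at -1.16. ZFAS1:30 went the other way. It was listed at 18.6 and 18.9 FPKM in MDA-MB-231-P3, against 8.64 and 9.18 FPKM in MDA-MB-231. The log2 difference was 1.03 (SE 0.28), with a limma p of 0.0190 before and 0.328 after adjustment. Its share of ZFAS1 was 3.06% and 3.42% in MDA-MB-231-P3 and 0.784% and 0.847% in MDA-MB-231. A test of shares across 5016 isoforms, added after the data were seen, gave ZFAS1:30 an unadjusted limma p of 0.00353 and an adjusted p of 0.467, and called 0.0% of isoforms (8.79% had an unadjusted p under 0.05). By share, 7 of the 43 tested isoforms of the 4 genes lay lower in the subline without overlap and 11 higher, against 17.7% and 19.0% of the isoforms in that test.

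The lower sum of DANCR lay in its leading isoform. DANCR:13 was listed at 42.1 and 31.3 FPKM in MDA-MB-231-P3, against 63.2 and 59.6 FPKM in MDA-MB-231. Its log2 difference was -0.75 (SE 0.32, limma adjusted p = 0.417). All other DANCR isoforms together were listed at 17.3 and 27.4 FPKM in MDA-MB-231-P3 and at 17.5 and 18.8 FPKM in MDA-MB-231, which overlapped. The share of DANCR:13 was 70.9% and 53.4% in MDA-MB-231-P3 and 78.3% and 76.1% in MDA-MB-231. DANCR:14, the next in level, had 8.55 and 9.07 FPKM in MDA-MB-231-P3 and 9.06 and 6.97 FPKM in MDA-MB-231, and DANCR:16 had 4.46 and 6.55 FPKM in MDA-MB-231-P3 and 3.76 and 10.4 FPKM in MDA-MB-231. Both overlapped. In MDA-MB-231-P3 replicate 2, DANCR:2 held 15.1% of the gene, against 2.47% in the other subline library and 3.57% and 0.0162% in the parental libraries, so the low share of DANCR:13 there went with 1 library's value for DANCR:2.

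EPB41L4A-AS1:7 was listed at 150 and 105 FPKM in MDA-MB-231-P3, against 348 and 182 FPKM in MDA-MB-231, and made up 88.0% of the difference of the gene. Its log2 difference was -1.0 (SE 0.47, limma adjusted p = 0.442), and -0.54 without MDA-MB-231 replicate 1. It held 66.9% and 62.7% of EPB41L4A-AS1 in the subline and 79.4% and 68.5% in the parent. EPB41L4A-AS1:2, the second isoform, was listed at 32.0 and 34.9 FPKM in MDA-MB-231-P3 and at 45.2 and 49.6 FPKM in MDA-MB-231, and its log2 difference was -0.50 (SE 0.29, limma adjusted p = 0.522). EPB41L4A-AS1:9 and EPB41L4A-AS1:8 were lower without overlap as well, at -0.74 and -1.47. Leaving out a library brought EPB41L4A-AS1:9 to -0.45 (MDA-MB-231 replicate 1) or -0.46 (MDA-MB-231-P3 replicate 1), and EPB41L4A-AS1:8 to -0.48 (MDA-MB-231-P3 replicate 2) or -2.47 (MDA-MB-231-P3 replicate 1). EPB41L4A-AS1:10 overlapped, at 11.3 and 3.05 FPKM in the subline and 4.36 and 2.66 FPKM in the parent. A pair of low isoforms went the other way. EPB41L4A-AS1:11 was listed at 5.83 and 5.76 FPKM in MDA-MB-231-P3 and at 3.24 and 3.41 FPKM in MDA-MB-231, and EPB41L4A-AS1:4 at 3.80 and 3.66 FPKM in MDA-MB-231-P3 and at 2.11 and 2.21 FPKM in MDA-MB-231. Their log2 differences were 0.72 (SE 0.27, limma adjusted p = 0.385) and 0.67 (SE 0.27, limma adjusted p = 0.409). EPB41L4A-AS1:6 was listed at 3.98 FPKM in MDA-MB-231-P3 replicate 1 and near 0 in the other 3 libraries.

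LRRC75A-AS1 had the most isoforms and the most even make-up between the lines. LRRC75A-AS1:91 was listed at 579 and 728 FPKM in MDA-MB-231-P3, against 942 and 922 FPKM in MDA-MB-231. Its log2 difference was -0.52 (SE 0.32, limma adjusted p = 0.533). Its share overlapped between the lines, at 58.4% and 60.4% in MDA-MB-231-P3 and 54.0% and 58.8% in MDA-MB-231. LRRC75A-AS1:94 was listed at 142 and 177 FPKM in MDA-MB-231-P3 and at 272 and 242 FPKM in MDA-MB-231, and LRRC75A-AS1:96 at 91.0 and 97.2 FPKM in MDA-MB-231-P3 and at 211 and 137 FPKM in MDA-MB-231. Each of the 10 most abundant isoforms had a negative difference and lay lower without overlap. The other 7 of these, LRRC75A-AS1:79, LRRC75A-AS1:80, LRRC75A-AS1:95, LRRC75A-AS1:93, LRRC75A-AS1:88, LRRC75A-AS1:90 and LRRC75A-AS1:84, had log2 differences of -1.12 to -0.38, with limma adjusted p of 0.345 to 0.644. Without MDA-MB-231 replicate 1, LRRC75A-AS1:96 was at -0.54 in place of -0.85, LRRC75A-AS1:79 at -0.45 in place of -0.76 and LRRC75A-AS1:95 at -0.29 in place of -0.46. Without MDA-MB-231-P3 replicate 1, LRRC75A-AS1:80 was at -0.067 in place of -0.38 and LRRC75A-AS1:88 at -0.17 in place of -0.81. The median over its 19 tested isoforms was -0.52, against 0.09 over all isoforms tested. These 19 share the reads of 1 gene, and no median was computed for isoforms of like abundance.

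**Figure D3:**
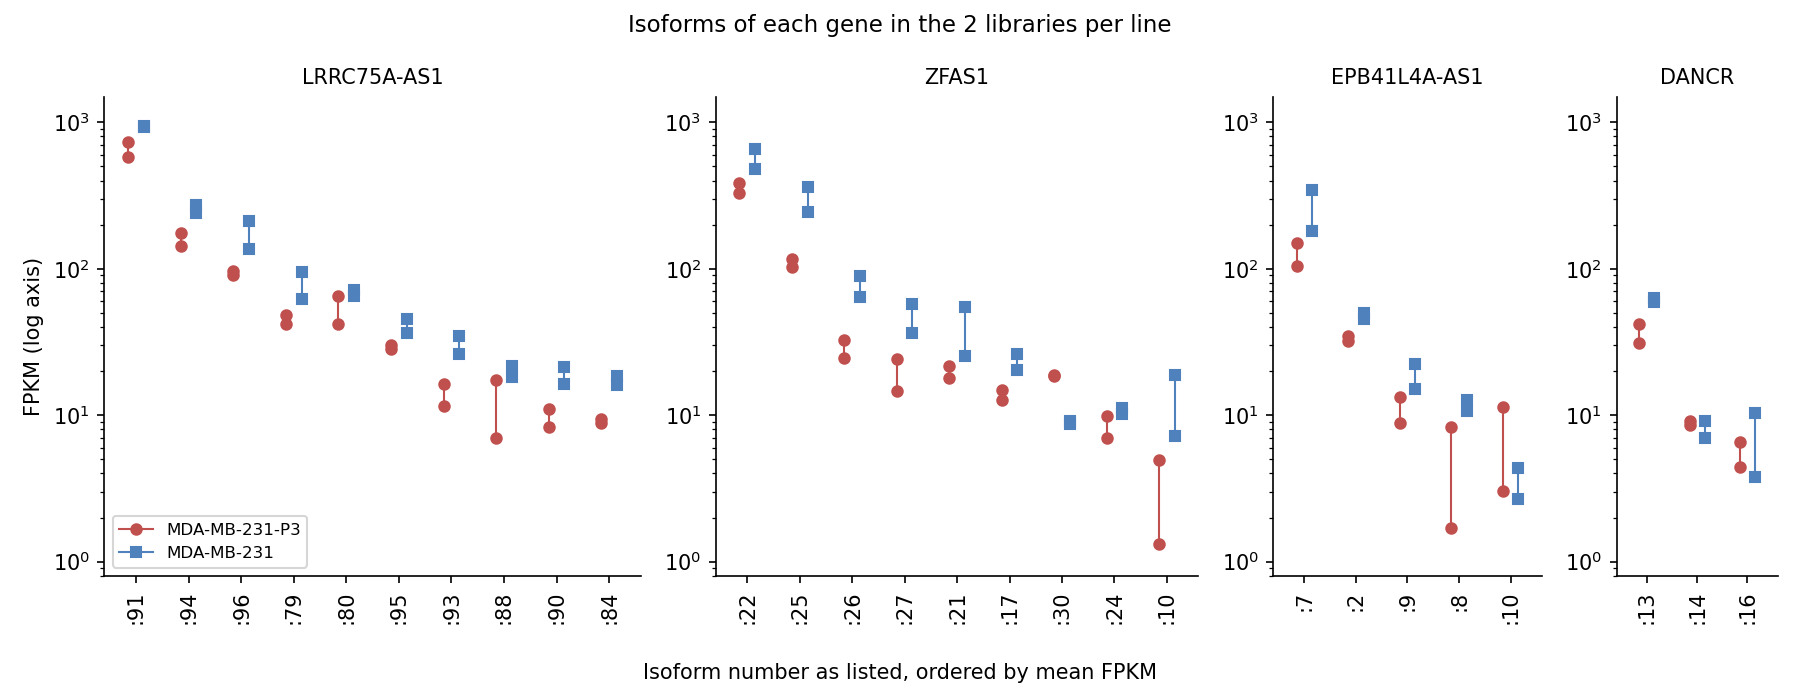
FPKM on a log axis of the isoforms that led their gene, held at least 10% of it or had a mean of at least 5 FPKM, in the 2 MDA-MB-231-P3 libraries (circles) and the 2 MDA-MB-231 libraries (squares), with a line joining the libraries of a line. Most isoforms lie lower in MDA-MB-231-P3, ZFAS1:30 lies higher, and DANCR:14, DANCR:16 and EPB41L4A-AS1:10 overlap.

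**Figure D4:**
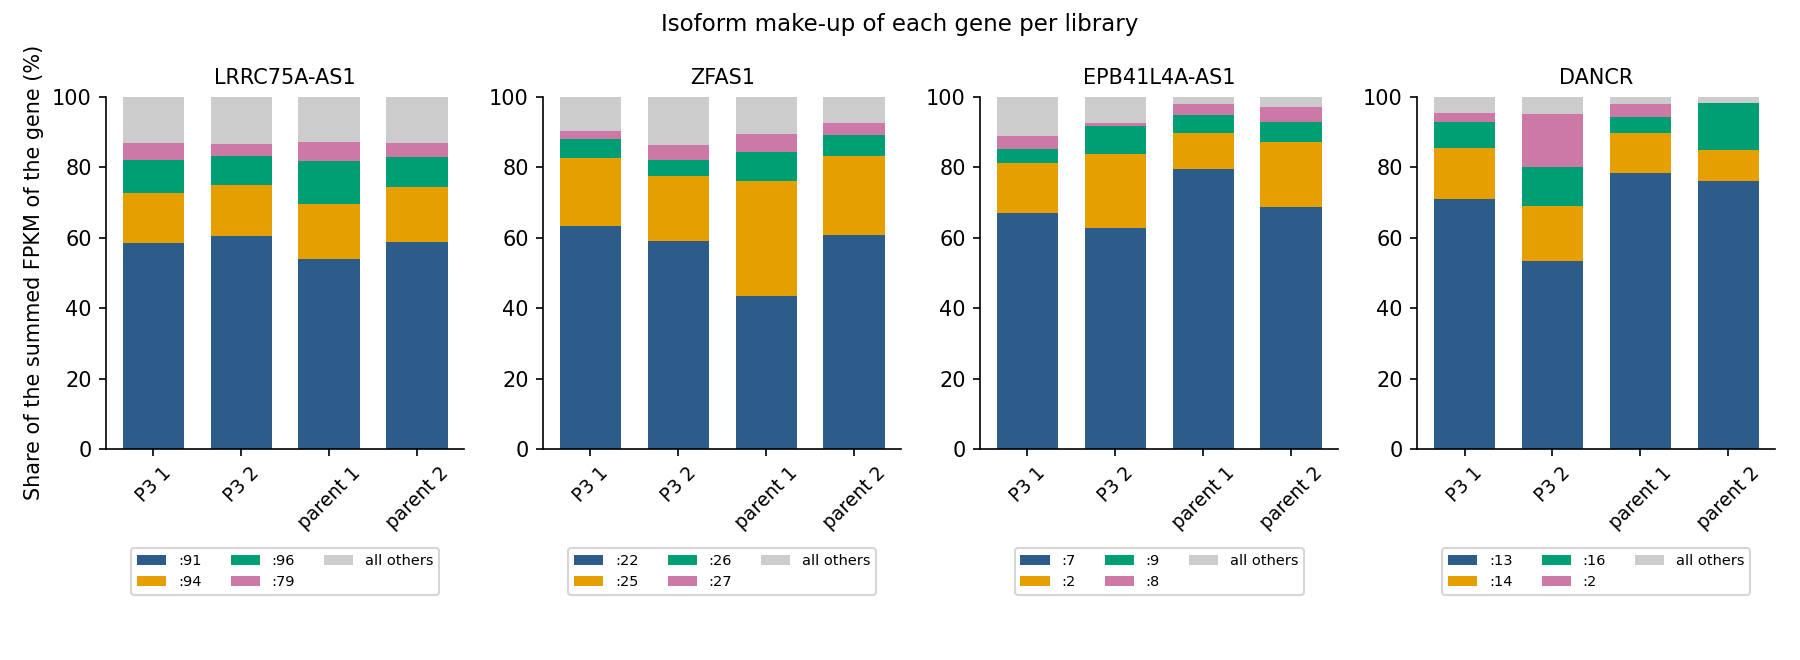
Share of the summed FPKM of each gene held by its 4 most abundant isoforms and by all others (stacked bars, y axis in percent), per library (P3 is MDA-MB-231-P3, parent is MDA-MB-231). The leading isoform holds 43.3% or more of its gene in every library, and DANCR:2 stands out in MDA-MB-231-P3 replicate 2, at 15.1%.

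The number of isoforms in effective use, the inverse of the summed squared shares, was 2.11 and 2.25 for EPB41L4A-AS1 in MDA-MB-231-P3 and 1.55 and 1.96 in MDA-MB-231. For DANCR it was 1.88 and 2.89 in MDA-MB-231-P3 and 1.59 and 1.66 in MDA-MB-231. For both genes the number was higher in both subline libraries than in both parental ones. How many of all genes lay apart in this way was not computed, so this is a description. The value of 2.89 for DANCR was from MDA-MB-231-P3 replicate 2, where DANCR:2 held 15.1% of the gene. For ZFAS1 it was 2.26 and 2.57 in MDA-MB-231-P3 and 3.25 and 2.35 in MDA-MB-231, and for LRRC75A-AS1 2.66 and 2.51 in MDA-MB-231-P3 and 2.98 and 2.62 in MDA-MB-231, and these overlapped. Isoforms of a gene share reads, and how the reads were split among them is not given in the sources used here, so single isoform values are less certain than the sums.

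For comparison, 33 names of other snoRNA hosts (GAS5, MEG8 and genes of the SNHG series) were searched, of which 23 were listed and 22 tested. They are not all the other hosts there are. Differences ran between -1.41 and 1.32 on the log2 scale around a median of -0.51, and 18 of the 22 were below 0. Both subline libraries lay below both parental ones for 16 and above them for 2, and 0 were called (limma, smallest adjusted p of 0.268), with 7 lower and 1 higher at an unadjusted p under 0.05. Over all genes tested, 21.4% lay lower and 28.9% higher without overlap, and 5.68% were lower and 9.5% higher at an unadjusted p under 0.05. Among genes of at least 50 FPKM, 35.1% lay lower without overlap. Of these 22 hosts, 6 had a more negative difference than ZFAS1, 7 than EPB41L4A-AS1, 8 than LRRC75A-AS1 and 14 than DANCR. The 4 genes thus lay inside the range of the other hosts. With libraries rescaled to an equal total the median of the 22 was -0.11, while that of all genes tested moved from 0.09 to 0.41.

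By the distance between profiles over the 4 libraries, the lncRNA most like ZFAS1 was MIR3681HG, followed by lnc-SLC6A12-2 and SNHG15, of 609 genes with a mean of at least 10 FPKM. MIR3681HG was listed at 38.0 and 35.2 FPKM in MDA-MB-231-P3 and at 69.2 and 61.2 FPKM in MDA-MB-231, a distance of 0.141 on the log2 scale. The nearest to DANCR was lnc-ZNF644-1 (distance 0.0602), to EPB41L4A-AS1 lnc-TIMM22-4 (0.241) and to LRRC75A-AS1 lnc-PILRB-1 (0.0768). A distance under 0.5 was reached by 55 genes for ZFAS1, 141 for DANCR, 25 for EPB41L4A-AS1 and 106 for LRRC75A-AS1, so over 4 libraries such likeness was common. Among the members themselves, DANCR and LRRC75A-AS1 were nearest, at 0.285.

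Of the lncRNAs named for genes around the 4 loci, 50 were listed and 6 reached the mean of 0.5 FPKM needed for testing. The most abundant at each locus was lnc-DDX27-4 near ZFAS1, at 0.786 and 0.706 FPKM in MDA-MB-231-P3 and 0.458 and 0.128 FPKM in MDA-MB-231, lnc-USP46-2 near DANCR, at 1.05 and 1.65 FPKM in MDA-MB-231-P3 and 0.475 and 0.0486 FPKM in MDA-MB-231, and lnc-ZSWIM7-4 near LRRC75A-AS1, at 5.28 and 2.47 FPKM in MDA-MB-231-P3 and 1.98 and 2.73 FPKM in MDA-MB-231. None of these passed (limma adjusted p of 0.495, 0.311 and 0.550). LINC01618, which overlaps DANCR on the same strand, was listed at 0 in all 4 libraries, and the neighbours of EPB41L4A-AS1 did not reach the level for testing.

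For description, the sequence around the start sites of the 4 genes is shown. It runs from 50 bases before to 50 bases after the RefSeq start (GRCh38.p14, plus strand for each). Whether it bears on the levels of the genes was not tested. The capitals mark CTTTC, a short pyrimidine run searched on both strands, or its reverse complement GAAAG.
ZFAS1 (chr20:49278592-49278691): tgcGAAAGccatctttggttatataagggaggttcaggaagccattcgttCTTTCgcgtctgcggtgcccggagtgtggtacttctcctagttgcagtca
DANCR (chr4:52712344-52712443): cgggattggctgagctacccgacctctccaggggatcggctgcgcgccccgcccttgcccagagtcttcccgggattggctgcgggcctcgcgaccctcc
EPB41L4A-AS1 (chr5:112160476-112160575): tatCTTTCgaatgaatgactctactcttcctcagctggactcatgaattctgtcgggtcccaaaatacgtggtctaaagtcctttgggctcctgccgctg
LRRC75A-AS1 (chr17:16438937-16439036): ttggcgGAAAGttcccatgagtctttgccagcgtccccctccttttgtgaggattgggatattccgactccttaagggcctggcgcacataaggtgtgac

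The search covered 300 bases, 250 before to 50 after the start. In ZFAS1, CTTTC stood at positions 1 to 5 of the transcript on the gene's own strand. CTTTC on either strand was found for ZFAS1, EPB41L4A-AS1 and LRRC75A-AS1 and not for DANCR, and 54.7% of all 35116 RefSeq promoter windows of this length hold it. The other motifs were searched on both strands too, as exact letters, and were found in the windows of none of the 4 genes. Variants of these letters, such as tatataag before the start in the ZFAS1 sequence above, were not searched. The search therefore does not tell whether a start site has a variant of a motif. TATAAA is held by 11.5% of all windows. For CACGTG the share is 7.26%. For CCGGAA it is 17.2%.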

How the data were processed

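RNA of MDA-MB-231-P3 and MDA-MB-231 cells went into dUTP (strand-marked) mRNA libraries read from both ends, as the labels' protocols state. Alignment to hg19 was with HISAT2, per the labels' protocols, and StringTie is named, without a version, in the submitters' processing notes. The authors deposited FPKM for each lncRNA isoform. The lncRNA annotation, and how reads were divided among isoforms, is not given in the sources used here. Each sample's own table and the series table were equal in every value. Depth was unknown, so no counting interval was given.

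Libraries were grouped by line, 2 each. Isoforms were summed per gene. Features with a mean of at least 0.5 FPKM were tested on log2(FPKM + 0.5), a scale that understates changes of low values, with limma 3.58.1 in R 4.3.3 (intensity trend, two-sided, no block), with Benjamini-Hochberg adjustment over all features and a threshold of 0.05. A check on simulated data required only that the size of changes larger than those of the 4 genes was recovered. It set no condition on how often changes of their size were called. Named isoforms were those leading their gene in any library, holding at least 10% of it or averaging at least 5 FPKM; other isoforms named were chosen after their values were seen. Likeness was the Euclidean distance of mean-centred log2 values, the nearest 3 genes being sought for each member. Positions came from GENCODE 44 lifted to GRCh37, snoRNA sequences from GRCh37 and promoters from RefSeq (GRCh38.p14), where all 4 genes matched. Python 3.11.15, pandas 2.3.3 and matplotlib 3.10.9 were used. The members and lists were chosen with earlier results of these data known.

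Alternatives changed the pseudocount to 0.1 or 1, dropped the filter or raised it to 1 FPKM, and used 4 other scalings, no trend, the replicate number as a block, or 3 of the 4 libraries. The test of shares was added after seeing the data.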

Additional observations from a re-analysis of the deposited data

How the results depend on the processing

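The log2 differences of the 4 summed genes kept their sign and stayed uncalled in all 14 alternatives, at -1.0 to -0.51 for ZFAS1, -0.51 to -0.02 for DANCR, -1.18 to -0.41 for EPB41L4A-AS1 and -0.74 to -0.19 for LRRC75A-AS1. Their limma adjusted p ranged from 0.253 to 0.967. Isoforms were followed here only where they led their gene, held at least 10% of it or averaged at least 5 FPKM. Of these 27 isoforms, 22 kept their sign and stayed uncalled, ZFAS1:30 at 0.94 to 1.42. The others changed sign: DANCR:14 to -0.039 without MDA-MB-231 replicate 2 (-0.039 to 0.32 over single libraries left out); DANCR:16 to 0.17 and 0.074 with the rescalings, 0.47 without MDA-MB-231 replicate 2 and 0.052 without MDA-MB-231-P3 replicate 1 (-0.88 to 0.47); EPB41L4A-AS1:10 to -0.14 without MDA-MB-231-P3 replicate 1 (-0.14 to 1.59); and LRRC75A-AS1:80 to 0.024 and ZFAS1:24 to 0.032 with an equal total. Leaving out single libraries moved the share difference of the leading isoform between 0.275 and 17.7 percentage points for ZFAS1:22, -23.8 and -6.28 for DANCR:13, -14.6 and -3.73 for EPB41L4A-AS1:7 and 0.603 and 5.44 for LRRC75A-AS1:91. The rescalings left shares as they were.

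Over all features, 4 genes were called, against 0 when the pseudocount was 1, when the filter or the trend was dropped or when any single library was left out, and 2 with quantile normalization; the count of isoforms called was 0, and 6 with a minimum of 1 FPKM. The median of the other snoRNA hosts was -0.51, and -0.39 with quantile normalization, -0.11 with an equal total, -0.22 with an equal total without the most abundant isoforms, and -0.70 to -0.47 without single libraries. That of all genes tested was 0.09 as deposited, and -0.03, 0.41 and 0.32 with those scalings in the same order. The split of genes at an unadjusted p under 0.05 was 612 higher and 366 lower as deposited, and 1109 higher and 147 lower with an equal total. For these changes the cause was not tested. With the replicate number as a block, 0 genes and 0 isoforms were called, and the adjusted p of ZFAS1 was 0.323; same-numbered libraries had a correlation of deviations of 0.0777, and with 2 pairs the numbers were not taken as pairing. Where a library was left out, the remaining library of that line was taken to vary as those of the other line do. The depth was unknown, so values near 0 are given only as listed.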
